A study of Mus musculus with 12 samples.

Results

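The MHC class II presentation genes were taken as 8 genes, H2-Aa, H2-Ab1, H2-Eb1, Cd74, Ciita, H2-DMa, H2-DMb1 and H2-DMb2, found by their symbol among the 46983 genes of the deposited count files, of which 14706 were tested. They were examined in RNA from the left ventricle (LV) of 12 mouse hearts at 12 weeks of age, with 3 animals in each of 4 groups. The groups were Wt offspring of non-diabetic pregnancy (animals 25, 42 and 89), Wt offspring of diabetic pregnancy (animals 50, 7 and 80), Hif1a+/- offspring of non-diabetic pregnancy (animals 14, 32 and 44) and Hif1a+/- offspring of diabetic pregnancy (animals 66, 72 and 77). All groups had Wt mothers of the inbred FVB strain and Hif1a+/- fathers carrying the global Hif1atm1jhu null allele on the same background. Diabetes had been induced in the mothers with streptozotocin before mating, so "diabetic" refers to the pregnancy and not to the offspring. The animals of a group came from several litters, and the labels do not tie an animal to its litter.

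MHC class II molecules hold peptides from internalised proteins at the surface of dendritic cells, B cells and macrophages, where CD4+ T cells read them. H2-Aa and H2-Ab1 encode the alpha and beta chains of the mouse molecule I-A, H2-Eb1 encodes the beta chain of I-E, and Cd74 encodes the invariant chain that guards the binding groove on the way to the endosome. There H2-M, a dimer of H2-DMa with a beta chain from H2-DMb1 or H2-DMb2, exchanges the last piece of the invariant chain for peptide. Ciita encodes the coactivator that switches these genes on, and it does so by docking on the factors RFX, CREB and NF-Y at a conserved promoter module of X and Y boxes. In the heart the usual sources are resident macrophages and dendritic cells, and interferon-gamma can induce the genes in other cells.

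Reads assigned to genes numbered between 16132442 and 39812939 per sample. Levels are given as counts-per-million values (CPM), scaled between samples by the TMM method. Markers of ventricular myocardium were abundant, with a sum of 6 cardiomyocyte genes between 71900 and 81400 CPM. Hif1a itself was between 47.9 and 71.8 CPM in Wt and between 64.8 and 89.4 CPM in Hif1a+/-. Its log2 fold change, Hif1a+/- against Wt, was 0.48 in the non-diabetic and 0.39 in the diabetic groups. Neither was past the adjusted edgeR test. The level was not used as a check of the genotype, and whether reads of the null allele are part of it was not tested. The labels give female for every animal and the study design gives male. Transcripts of the Y-linked gene Ddx3y were at 76.1 CPM or more in 11 animals. Hif1a+/- diabetic animal 72 instead had 0.352 CPM of Ddx3y, and 158 CPM of Xist against at most 5.99 CPM elsewhere. Values without this animal are given for the class II members in some comparisons, and for no gene of the other lists.

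Of the 8 genes, 6 lie on chromosome 17 within the MHC, by the GENCODE M21 annotation of GRCm38. From the lower to the higher coordinate they are H2-DMa at chr17:34119541-34139101, H2-DMb2 at chr17:34143307-34151555, H2-DMb1 at chr17:34153072-34160230, H2-Ab1 at chr17:34257689-34269419, H2-Aa at chr17:34282744-34287823 on the minus strand and H2-Eb1 at chr17:34305867-34316674. Cd74 and Ciita lie on other chromosomes. The 8 genes are annotated as protein coding.

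Promoter sequence was read from RefSeq (GRCm38.p6) to show the letters that class II genes share upstream of their start, and 5 of the 8 members had an entry. The searched letters were ATTGG, the core of the Y box bound by NF-Y, TGATTGG, the same core with the next bases of the class II consensus (each TGATTGG contains an ATTGG), and AGCAAC, the core of the X box bound by RFX, on both strands of the 250 bases before the start. The stretches of H2-Aa (chr17:34287824-34287983, minus strand) and H2-Eb1 (chr17:34305707-34305866, plus strand) that end just before the start are printed because they are the classical promoters of the alpha and beta chains, with the Y core on either strand and the X core in capitals. For H2-DMb1 (chr17:34153115-34153144, plus strand) and H2-DMb2 (chr17:34145144-34145173, plus strand) a window of 30 bases around the Y core is printed, with the Y core in capitals, so that the 2 copies can be compared. The RefSeq start of these 2 genes lies inside the GENCODE gene.
H2-Aa: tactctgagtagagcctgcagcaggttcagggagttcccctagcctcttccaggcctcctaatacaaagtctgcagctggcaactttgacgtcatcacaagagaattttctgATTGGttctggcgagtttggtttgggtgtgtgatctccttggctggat
H2-Eb1: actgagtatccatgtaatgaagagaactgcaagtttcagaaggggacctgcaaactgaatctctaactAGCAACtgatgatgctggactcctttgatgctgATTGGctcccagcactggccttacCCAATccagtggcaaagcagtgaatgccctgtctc
H2-DMb1: ctgattcactcagtgATTGGtctgacctgc
H2-DMb2: ctaagtcacttagtgATTGGactgacttaa
TGATTGG began 50 bases before the start in H2-Aa, 61 in H2-Eb1, 63 in H2-DMb1 and 92 in H2-DMb2, and it was present in 7.23% of the 32851 RefSeq promoters of this length. ATTGG alone was in 33.8% of them. Both entries of H2-DMa lacked TGATTGG. Among the members with an entry, AGCAAC was found in H2-Eb1, 27 bases ahead of the Y core, and an X core followed by a Y core within 40 bases on one strand occurred in 0.536% of promoters. H2-Oa, H2-Ob and H2-Eb2, which are class II genes outside the 8, also held both cores in this order. A match is a match of letters only, and the X box of class II genes varies more than this core.

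The classical chains and the invariant chain varied widely between animals of the same group and varied together. H2-Aa was at 13.0, 28.8 and 41.6 CPM in non-diabetic Wt animals 25, 42 and 89, at 23.1, 58.6 and 129 CPM in diabetic Wt animals 50, 7 and 80, at 29.4, 30.9 and 18.1 CPM in non-diabetic Hif1a+/- animals 14, 32 and 44, and at 23.5, 39.7 and 78.9 CPM in diabetic Hif1a+/- animals 66, 72 and 77. Diabetic Wt animal 80 stood highest and non-diabetic Wt animal 25 lowest, and the values of the 4 groups overlapped. H2-Ab1, the partner chain, was at 7.53, 17.6 and 23.0 CPM in the non-diabetic Wt group, 11.6, 33.8 and 77.9 CPM in the diabetic Wt group, 17.2, 19.8 and 12.1 CPM in the non-diabetic Hif1a+/- group and 14.7, 22.2 and 45.7 CPM in the diabetic Hif1a+/- group, in the same order of animals. Its 2 extremes were the animals named for H2-Aa. Cd74, the invariant chain, was at 29.2, 55.3 and 74.1 CPM, then 42.6, 111 and 220.0 CPM, then 54.5, 56.8 and 38.7 CPM, and then 51.2, 79.1 and 144 CPM in the 4 groups in this order. In each diabetic group 1 animal (50 or 66) was within the range of the non-diabetic animals of its genotype for these 3 genes, and the other 2 lay above that range.

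**Figure D1:**
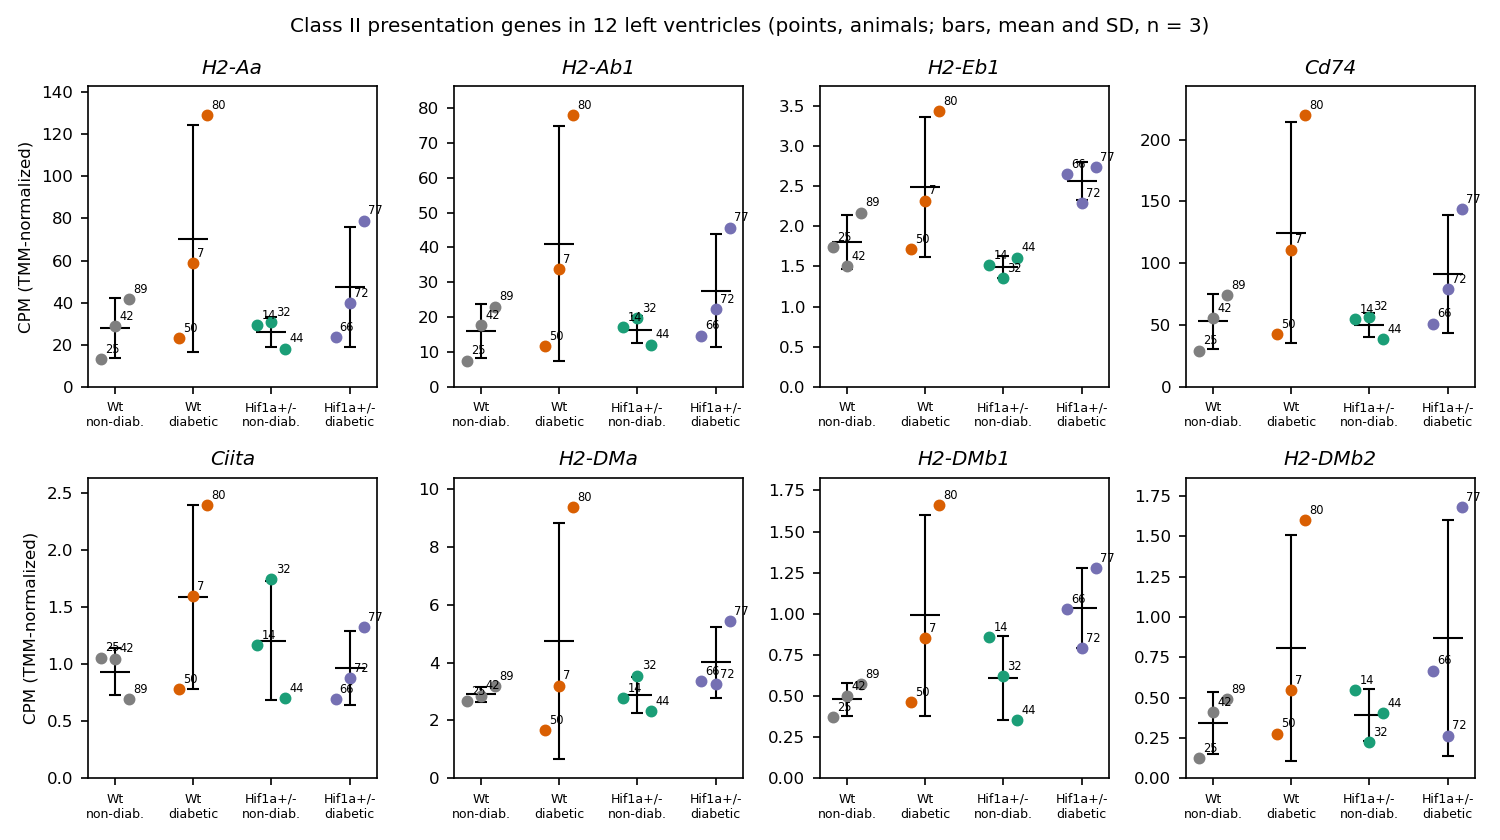
Level of each class II presentation gene (CPM, linear axis from 0) in the 12 LVs by group; points are animals with their number, bars are the mean and SD of 3 animals. Diabetic Wt animal 80 is the highest point in 7 of the 8 panels, and the H2-Eb1 panel shows the 3 diabetic Hif1a+/- animals (2.29 to 2.74 CPM) above the 3 non-diabetic ones (1.35 to 1.61 CPM).

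The spread between animals of a group was far larger for these genes than for most. The within-group SD of log2 CPM was 0.90 for H2-Aa, 0.92 for H2-Ab1 and 0.80 for Cd74, against a median of 0.18 over the 14706 tested genes. H2-Aa had a larger SD than 99.4% of the tested genes, H2-Ab1 than 99.5% and Cd74 than 98.9%, and among the 10363 genes with a mean of at least 5 CPM these shares were 99.8%, 99.8% and 99.7%. H2-Aa differed 9.88-fold between its lowest and highest animal, H2-Ab1 10.3-fold and Cd74 7.54-fold. With at least 209 reads of H2-Aa, 121 of H2-Ab1 and 469 of Cd74 in every sample, counting error was small beside these differences.

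The ratios among the same 3 genes stayed within narrow limits, although Cd74, at chr18:60803848-60812652, is not linked to the MHC. The CPM of H2-Aa divided by that of H2-Ab1 lay between 1.49 and 2.0 in the 12 animals, a 1.34-fold range, while the CPM of Cd74 divided by that of H2-Ab1 lay between 2.83 and 3.88, a 1.37-fold range. The ratios are of read counts at the 3′ end and are compared here between animals, not read as the amounts of one transcript against another. The correlation of log2 CPM with H2-Ab1 over the 12 animals was r = 0.99 for H2-Aa (Spearman's rho 0.99, permutation test with 100000 resamples, p = 1e-05, the smallest it can give, adjusted p = 7e-05 over 15 pairs) and r = 0.99 for Cd74 (rho 0.99, adjusted permutation p = 7e-05). It stayed at 0.98 and 0.99 without the 2 animals farthest from the median of H2-Ab1, diabetic Wt animal 80 and non-diabetic Wt animal 25. Within groups, with the group means removed, r was 0.99 and 1.0.

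H2-Eb1, the beta chain of I-E, kept to a narrower range than its neighbours. Neither FVB nor C57BL/6 mice, whose genome is the reference, bring I-E to the cell surface. In the reference the alpha chain locus is annotated as H2-Ea-ps, and which defect FVB carries was not examined. H2-Eb1 was at 1.74, 1.5 and 2.17 CPM in the non-diabetic Wt group, 1.71, 2.32 and 3.43 CPM in the diabetic Wt group, 1.52, 1.35 and 1.61 CPM in the non-diabetic Hif1a+/- group and 2.65, 2.29 and 2.74 CPM in the diabetic Hif1a+/- group. The highest value was again in diabetic Wt animal 80, the 3 diabetic Hif1a+/- animals lay above the 3 non-diabetic Hif1a+/- animals, and the Wt groups overlapped. Its within-group SD of 0.29 on the log2 scale was larger than that of 72.7% of the tested genes, and its range was 2.54-fold. The ratio of H2-Eb1 to H2-Ab1 therefore varied 5.26-fold, from 0.044 to 0.231, and r with H2-Ab1 was 0.70 (rho 0.54, adjusted permutation p = 0.0194 for r and 0.102 for rho) and 0.56 without the 2 extreme animals. With 24 to 103 reads per sample, H2-Eb1 carried more counting error than H2-Aa or Cd74.

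**Figure D2:**
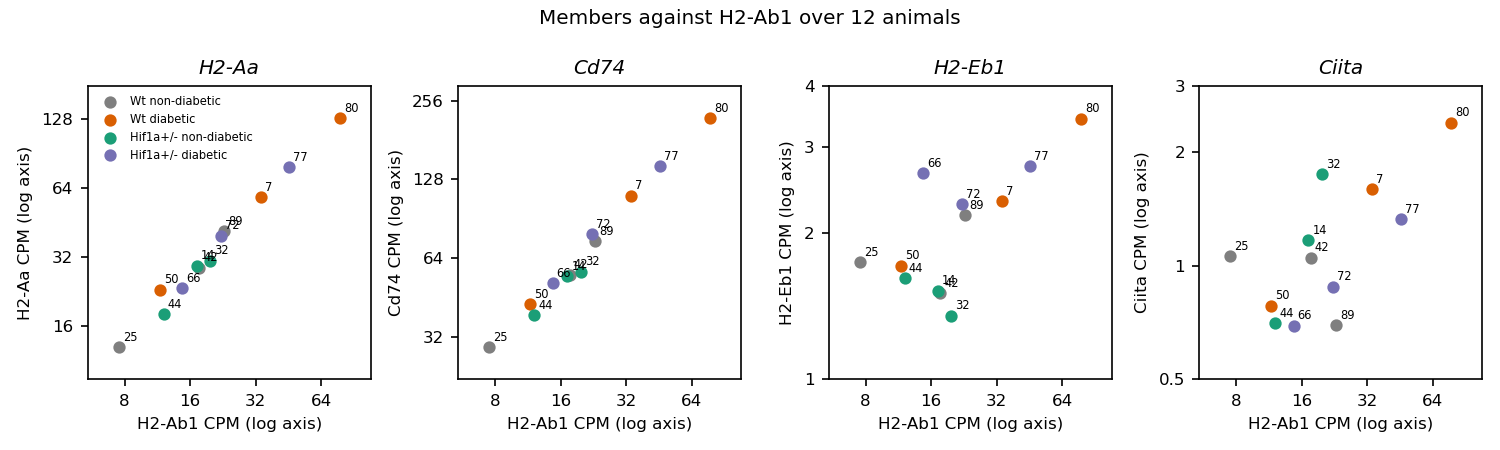
CPM of H2-Aa, Cd74, H2-Eb1 and Ciita against CPM of H2-Ab1 in the 12 animals, both axes logarithmic; colours are the groups and numbers the animals. H2-Aa and Cd74 follow H2-Ab1 along a line (r = 0.99 each), whereas H2-Eb1 (r = 0.70) and Ciita (r = 0.68) scatter around it.

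Ciita, at chr16:10480059-10528418, was read at a low level, between 14 and 47 reads per sample. It was at 1.06, 1.05 and 0.695 CPM in the non-diabetic Wt group, 0.784, 1.60 and 2.40 CPM in the diabetic Wt group, 1.17, 1.75 and 0.704 CPM in the non-diabetic Hif1a+/- group and 0.693, 0.880 and 1.33 CPM in the diabetic Hif1a+/- group. Diabetic Wt animal 80 was the highest of the 12 once more, and non-diabetic Hif1a+/- animal 32 came next, although its H2-Ab1, at 19.8 CPM, was within the range of the non-diabetic Wt group. Ciita correlated with H2-Ab1 at r = 0.68 (rho 0.52, adjusted permutation p = 0.0239 for r and 0.106 for rho), and at 0.59 without the 2 extreme animals.

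The H2-M chains followed the classical chains less tightly. H2-DMa, the alpha chain, was at 2.68, 2.86 and 3.19 CPM in the non-diabetic Wt group, 1.66, 3.20 and 9.37 CPM in the diabetic Wt group, 2.77, 3.55 and 2.31 CPM in the non-diabetic Hif1a+/- group and 3.36, 3.26 and 5.43 CPM in the diabetic Hif1a+/- group. Its lowest and highest values were both in diabetic Wt animals (50 and 80). H2-DMb1 was at 0.374, 0.500 and 0.572 CPM, then 0.461, 0.851 and 1.66 CPM, then 0.857, 0.620 and 0.352 CPM, and then 1.03, 0.792 and 1.28 CPM, from 6 to 40 reads per sample. H2-DMb2 was at 0.125, 0.409 and 0.490 CPM, then 0.277, 0.545 and 1.60 CPM, then 0.545, 0.225 and 0.402 CPM, and then 0.668, 0.264 and 1.68 CPM, from 2 to 38 reads per sample. For H2-DMb2, and for no other member, the highest animal was diabetic Hif1a+/- animal 77, with diabetic Wt animal 80 just below it.

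The correlation with H2-Ab1 was r = 0.86 for H2-DMa (rho 0.79, adjusted permutation p = 0.00217 for r), 0.84 for H2-DMb1 (rho 0.71, adjusted permutation p = 0.00217) and 0.82 for H2-DMb2 (rho 0.58, adjusted permutation p = 0.00432 for r and 0.0934 for rho). Without the 2 extreme animals these were 0.83, 0.69 and 0.61. The 2 beta chain genes are close copies, and 67 of the 426 stretches of 75 bases (15.7%) in the last 500 bases of H2-DMb1 also occur in transcripts of H2-DMb2, so reads from there could not be placed on one gene. For H2-DMb2 27 stretches (6.34%) occur in transcripts of 8 genes outside the class II family, and the other 6 members shared none.

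Maternal diabetes, averaged over the 2 genotypes, went with higher mean levels of the 8 genes, by a median log2 difference of 0.94 against 0.0 over all tested genes, but no member passed the test. Cd74 was 2.07-fold higher (log2 fold change 1.05 ± 0.35, standard error), H2-Aa 2.12-fold (1.08 ± 0.40), H2-Ab1 2.05-fold (1.04 ± 0.40) and H2-Eb1 1.52-fold (0.61 ± 0.18) in the 6 diabetic than in the 6 non-diabetic animals. H2-DMb1 was 1.80-fold higher (0.85 ± 0.31), H2-DMb2 2.11-fold (1.08 ± 0.51) and H2-DMa 1.49-fold (0.57 ± 0.33), while Ciita differed by 1.16-fold (0.22 ± 0.30). These are from edgeR's quasi-likelihood test on the counts, with 0 of 8 members and 0.0% of all tested genes at an adjusted p under 0.1 (Benjamini-Hochberg over 14706 genes).

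At an unadjusted p under 0.05, 5 of the 8 members were higher in that average, against 5.47% of the tested genes. They were H2-Eb1 (unadjusted p of 0.00463, edgeR adjusted p = 0.283), Cd74 (unadjusted p of 0.0105, edgeR adjusted p = 0.332), H2-Aa (unadjusted p of 0.0167, edgeR adjusted p = 0.37), H2-DMb1 (unadjusted p of 0.018, edgeR adjusted p = 0.37) and H2-Ab1 (unadjusted p of 0.0235, edgeR adjusted p = 0.389). The members are not independent of each other, as their correlations show. Without diabetic Wt animal 80 the count was 2 (Cd74 and H2-Eb1) and the median log2 difference 0.60, without diabetic Hif1a+/- animal 77 it was 3 (Cd74, H2-DMb1 and H2-Eb1) with a median of 0.72, without animal 72 it was 6 with a median of 1.01, and a robust fit gave 3. In either direction, 11.3% of all tested genes had an unadjusted p under 0.05, and 8.85%, 8.89% and 9.58% without animals 80, 77 and 72. In the robust fit the share was 11.2%. In edgeR without the filter on low counts, 6 of the 8 members had an adjusted p under 0.1, against 2.19% of 27093 genes, with a standard error of 0.13 for Cd74 in place of 0.35. DESeq2 and limma-voom called 0 of 8, against 203 and 39 of all genes.

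**Figure D3:**
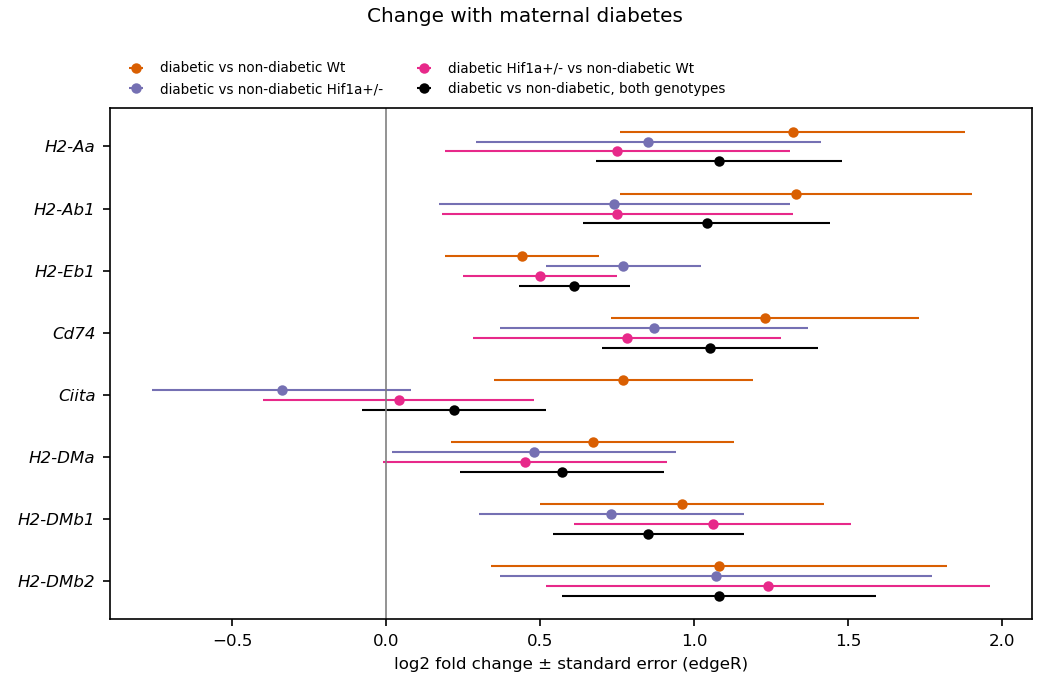
Log2 fold change of each member in 4 comparisons, with its standard error (edgeR, 12 animals in 1 fit); a value above 0 is higher in the diabetic group. H2-Aa, H2-Ab1 and Cd74 lie at 1.04 to 1.08 in the average over genotypes, H2-Eb1 has the shortest bars, and Ciita lies on both sides of 0.

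In Wt alone, the 8 genes were higher in mean level in diabetic than in non-diabetic animals, with a median log2 fold change of 1.02 against 0.01 over all tested genes. The values were 1.33 ± 0.57 for H2-Ab1 (unadjusted p of 0.0369, edgeR adjusted p = 1), 1.32 ± 0.56 for H2-Aa (unadjusted p of 0.035, edgeR adjusted p = 1) and 1.23 ± 0.50 for Cd74 (unadjusted p of 0.0283, edgeR adjusted p = 1), and the other 5 members lay between 0.44 and 1.08. No member passed the adjusted test (0 of 8, 0.0% of tested genes), 3 of 8 had an unadjusted p under 0.05 and were higher (1.17% of tested genes), and in 0 of 8 did the 3 diabetic animals lie above the 3 non-diabetic ones (2.14% of tested genes). Over all genes edgeR had 409 at an unadjusted p under 0.05, and DESeq2 and limma-voom called 4 and 0. The Wt values rested on animal 80. Without it the log2 fold change was 0.55 for H2-Aa, 0.49 for H2-Ab1, 0.54 for Cd74 and -0.24 for H2-DMa (0.67 ± 0.46 with it), and 0 members had an unadjusted p under 0.05, whereas without animal 50 these were 1.74, 1.78, 1.64 and 1.08 with 7 members under 0.05. Of all tested genes, in either direction, 2.78% had an unadjusted p under 0.05, and 4.35% without animal 80 and 4.0% without animal 50. Leaving out non-diabetic Wt animal 25 or 42 also left 0 members under 0.05 (3.02% and 2.06% of all genes), as did a robust fit and limma-voom (2.65% and 2.86%). Without the filter on low counts H2-Aa, H2-Ab1 and Cd74 had an edgeR adjusted p under 0.1 in this comparison (0.476% of all genes), at unchanged fold changes and with a standard error of 0.18 for Cd74.

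In Hif1a+/-, the comparison of diabetic with non-diabetic animals gave a median log2 fold change of 0.76 over the members, against -0.01 over all tested genes. H2-Eb1 was 1.71-fold higher (0.77 ± 0.25, unadjusted p of 0.00895, edgeR adjusted p = 0.299), with 2.56 ± 0.238 CPM against 1.49 ± 0.130 CPM (mean ± SD, n = 3 each), and its log2 fold change stayed between 0.72 and 0.85 when any 1 animal was left out. Cd74 was at 0.87 ± 0.50, H2-Aa at 0.85 ± 0.56, H2-Ab1 at 0.74 ± 0.57, H2-DMb2 at 1.07 ± 0.70, H2-DMb1 at 0.73 ± 0.43 and H2-DMa at 0.48 ± 0.46, with unadjusted p between 0.104 and 0.315 in edgeR. Ciita was the member that was lower, at -0.34 ± 0.42 (unadjusted p of 0.441 in edgeR).

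By the adjusted edgeR test 0 of 8 members passed in this comparison (0.0% of tested genes), and H2-Eb1 was the 1 member of 8 with an unadjusted p under 0.05 and higher (5.72% of tested genes) and the 1 member of 8 whose groups did not overlap (11.2% of tested genes). With 8 members, 1 is the smallest count above 0, and nothing is read from these shares. Over all genes edgeR had 1764 at an unadjusted p under 0.05, and DESeq2 and limma-voom called 201 and 937. In limma-voom with sample weights H2-Eb1 passed (adjusted p = 0.0636), and in edgeR without the filter on low counts H2-Aa, H2-Ab1 and Cd74 did (2.19% of all genes). Without diabetic animal 77 H2-Aa was at 0.26, H2-Ab1 at 0.17, Cd74 at 0.38, H2-DMb2 at 0.29 and H2-DMa at 0.21, while H2-Eb1 kept its unadjusted p under 0.05. Without animal 72 H2-Eb1 was at 0.85 and H2-DMb2 at 1.48, and 2 members (H2-DMb2 and H2-Eb1) had an unadjusted p under 0.05. Without animal 66, or without diabetic Wt animal 50, 2 members (Cd74 and H2-Eb1) did. Of all tested genes, in either direction, 12.0% had an unadjusted p under 0.05 with all animals. Without animals 77, 72, 66 and 50 the share was 8.42%, 8.58%, 11.1% and 12.0%.

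No member differed between the genotypes past the test. Among the non-diabetic groups, Hif1a+/- against Wt, the median log2 fold change of the members was -0.01 and the values ran from -0.27 ± 0.26 for H2-Eb1 to 0.37 ± 0.44 for Ciita. No member passed the adjusted edgeR test (0.0% of tested genes), 0 of 8 had an unadjusted p under 0.05 (0.959% of tested genes, 141 genes), and 0 of 8 had groups that did not overlap (4.81%). DESeq2 called 1 gene and limma-voom 0, none of them a member.

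Among the diabetic groups the median was -0.33, with Ciita lower in Hif1a+/- (-0.73 ± 0.41, unadjusted p of 0.098, edgeR adjusted p = 0.862), H2-Ab1 at -0.58 ± 0.56, H2-Aa at -0.57 ± 0.55 and H2-DMb2 at 0.16 ± 0.64. Again 0 of 8 passed the adjusted edgeR test (0.0%), 0 of 8 had an unadjusted p under 0.05 (5.35% of tested genes, 787 genes), and 0 of 8 had groups that did not overlap (7.94%). DESeq2 called 24 genes and limma-voom 1, none of them a member. The direction of H2-Aa, H2-Ab1 and Cd74 here depended on 1 animal, since without diabetic Wt animal 80 the log2 fold changes were 0.20, 0.26 and 0.25.

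The comparison of diabetic Hif1a+/- with non-diabetic Wt, the 2 groups that differ in both factors, shares its samples with the comparisons above. H2-DMb1 was 2.09-fold higher (1.06 ± 0.45, unadjusted p of 0.0322, edgeR adjusted p = 0.541) and H2-DMb2 2.35-fold (1.24 ± 0.72, unadjusted p of 0.107 in edgeR), while Cd74 (0.78 ± 0.50), H2-Aa (0.75 ± 0.56) and H2-Ab1 (0.75 ± 0.57) were below 1.8-fold. No member passed the adjusted edgeR test (0.0%), 1 of 8 had an unadjusted p under 0.05 and was higher (4.09% of tested genes), and 3 of 8, H2-Eb1, H2-DMa and H2-DMb1, had groups that did not overlap (7.47%). Over all genes 1302 had an unadjusted p under 0.05 in edgeR, and DESeq2 and limma-voom called 68 and 2. Without the filter on low counts H2-Aa, H2-Ab1 and Cd74 passed in edgeR (1.64% of all genes). These values too rested on single animals. Without animal 77 H2-DMb2 was at 0.45, H2-Aa at 0.16, H2-Ab1 at 0.18 and Cd74 at 0.29. The unadjusted p of H2-DMb1 was 0.05 or more without animal 25, 42, 66 or 77, which left 0 members under 0.05. Without animal 72 there were 2 (H2-DMb1 and H2-DMb2), and without animal 89, 50 or 80 also 2 (H2-DMb1 and H2-Eb1). The number of all tested genes under 0.05, in either direction, changed as well from the 1302 with all animals. It was 818, 649, 1265 and 946 without animals 25, 42, 66 and 77. Without animals 72, 89, 50 and 80 it was 1078, 2375, 1348 and 1663. Nothing is read from the change in member counts alone.

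Whether diabetes acted differently in the 2 genotypes was tested as the difference of the 2 log2 fold changes, Hif1a+/- minus Wt. It was -1.10 ± 0.60 for Ciita (unadjusted p of 0.0881, edgeR adjusted p = 0.998), where the diabetic Wt mean was 1.59 ± 0.808 CPM against 0.933 ± 0.206 CPM in non-diabetic Wt, and the diabetic Hif1a+/- mean 0.966 ± 0.325 CPM against 1.21 ± 0.522 CPM in non-diabetic Hif1a+/- (mean ± SD, n = 3 each). For the other 7 members it lay between -0.59 ± 0.80 (H2-Ab1) and 0.33 ± 0.36 (H2-Eb1). No member passed the adjusted edgeR test (0.0%), and 0 of 8 had an unadjusted p under 0.05 (2.52% of tested genes, 371 genes). DESeq2 and limma-voom called 0 genes. With standard errors of 0.36 to 0.91 on the log2 scale, a genotype difference of 2-fold in the response of most members was not detectable with 3 animals in each group.

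The remaining genes of the class II region were hardly read. H2-Oa and H2-Ob encode H2-O, the inhibitor of H2-M. H2-Oa had between 0 and 2 reads per sample and H2-Ob between 1 and 8, at most 0.400 CPM. H2-Eb2 had 1 read in 3 of the 12 samples and 0 in the other 9. H2-Ea-ps, at 5 to 20 reads and 0.205 to 0.883 CPM per sample, was the single one of the 4 that could be tested, and it differed by 0.27 ± 0.36 between diabetic and non-diabetic animals averaged over genotypes (unadjusted p of 0.464 in edgeR).

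The promoter factors that Ciita docks on showed small differences. In this and the following pathway lists, the genes given with values were those of lowest p for diabetes in Hif1a+/-. Those animals are also part of the average over genotypes. Of 7 tested subunits (Rfx5, Rfxap, Rfxank, Nfya, Nfyb, Nfyc and Creb1), 0 had an adjusted p under 0.1 and 0 an unadjusted p under 0.05 in edgeR for diabetes averaged over genotypes, with a median log2 difference of -0.12. Nfya, an NF-Y subunit, was at -0.20 ± 0.10, Nfyc, another, at -0.13 ± 0.06, and Creb1 at -0.12 ± 0.11. In diabetic Hif1a+/- against non-diabetic Wt, 2 of the 7 were lower at an unadjusted p under 0.05 (8.85% of tested genes in either direction), Nfya at -0.37 ± 0.14 (edgeR adjusted p = 0.502) and Nfyc at -0.21 ± 0.08 (edgeR adjusted p = 0.528). Of 7 tested genes of the interferon-gamma pathway 0 passed and 1 had an unadjusted p under 0.05 and was higher (5.47% of tested genes), namely the receptor chain Ifngr1 (0.29 ± 0.07, unadjusted p of 0.00173, edgeR adjusted p = 0.263), which was at 54.4 to 66.8 CPM in the 6 non-diabetic and 62.2 to 80.9 CPM in the 6 diabetic animals. The kinases Jak1 and Jak2 were at -0.10 ± 0.08 and -0.06 ± 0.07, and Ifng was too low to test.

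Genes tied to peptide making and invariant chain trimming in the endosome had higher means in diabetic animals, and none passed the adjusted test. The list is mostly proteases, with Ifi30 and the protease inhibitor Cst3 among them. Of 10 tested genes, 10 had a positive log2 difference averaged over genotypes (median 0.23), 7 had an unadjusted p under 0.05 and were higher (5.47% of tested genes), and 0 had an edgeR adjusted p under 0.1. Ctss, the protease that finishes the invariant chain, was at 0.62 ± 0.16 (unadjusted p of 0.00154, edgeR adjusted p = 0.263), with 11.5 to 17.0 CPM in the 6 non-diabetic and 15.7 to 30.9 CPM in the 6 diabetic animals. Ctsc, which activates other proteases, was at 0.44 ± 0.11 (unadjusted p of 0.00131, edgeR adjusted p = 0.257) and Ctsz at 0.29 ± 0.08 (unadjusted p of 0.004, edgeR adjusted p = 0.283). In Hif1a+/- alone Ctsc was 1.66-fold higher (0.73 ± 0.15, unadjusted p of 0.000365, edgeR adjusted p = 0.178). Ctss, Ctsc and Ctsz are among the genes the study reported as changed in these animals. The 7 of 10 is therefore not independent of that report.

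March1, the ubiquitin ligase that removes class II from the surface, was 1.89-fold higher in diabetic animals averaged over genotypes (0.92 ± 0.22, unadjusted p of 0.00104, edgeR adjusted p = 0.231). It was at 0.685 to 1.19 CPM in the 6 non-diabetic and 1.11 to 2.78 CPM in the 6 diabetic animals, so the 2 sets overlapped by little. The costimulators Cd86 and Cd80 were at 0.33 ± 0.18 and 0.49 ± 0.27. Of the 5 tested genes of turnover and costimulation 0 passed and 1 (March1) had an unadjusted p under 0.05 in edgeR and was higher (5.47% of tested genes). March1 too is in the study's own list of genes changed in these animals.

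Class I presentation, the pathway that shows peptides from inside the cell to CD8+ T cells, had 0 of 16 genes past the adjusted edgeR test, 5 with an unadjusted p under 0.05 and higher (5.47% of tested genes), and a median log2 difference of 0.29 averaged over genotypes. B2m, the light chain of class I, was at 0.43 ± 0.13 (unadjusted p of 0.00476, edgeR adjusted p = 0.283), H2-K1, a class I heavy chain, at 0.45 ± 0.17 (unadjusted p of 0.0182, edgeR adjusted p = 0.37) and Calr, a chaperone of its folding, at 0.39 ± 0.10 (unadjusted p of 0.0023, edgeR adjusted p = 0.275). Diabetic Wt animal 80 stood apart here too. It had the highest level of the 12 animals in 12 of the 16 class I genes (75%), against 12.8% of all tested genes, with H2-K1 at 208 CPM against 77.2 to 136 CPM in the other 11 animals. Tap1, the peptide transporter, chosen after its values were seen, was at 35.5 CPM in animal 80 and between 9.14 and 13.7 CPM elsewhere.

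**Figure D4:**
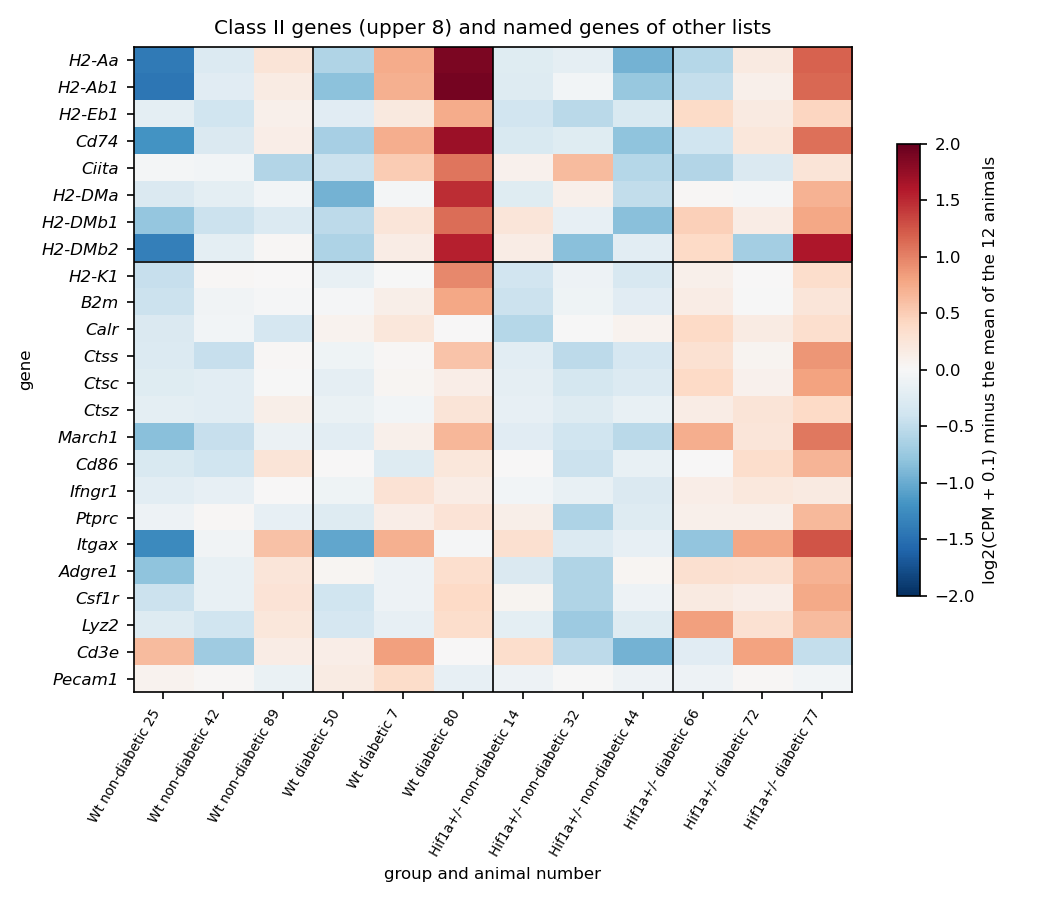
Level of the 8 class II genes (upper rows) and of named genes from other lists in the 12 animals, as log2(CPM + 0.1) minus the mean of the 12 animals. Columns of diabetic Wt animal 80 and diabetic Hif1a+/- animal 77 are high for the class II genes; H2-K1 (208 CPM in animal 80) goes with the first, and Ctsc (46.4 CPM in animal 77) with the second.

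Markers of the cells that usually carry class II were followed beside the members, since in whole LV tissue fewer or more cells of a type and less or more RNA per cell cannot be told apart. Macrophage and monocyte markers were higher in diabetic Hif1a+/- than in non-diabetic Hif1a+/-, with 0 of 17 past the adjusted edgeR test, 13 of 17 with an unadjusted p under 0.05 and higher (5.72% of tested genes), and a median log2 fold change of 0.88. No values without animal 72 or 77 are given for these markers. Several of the 17, among them Lyz2, Mrc1 and C1qa, are in the study's own list of genes changed in these animals. The 13 of 17 is therefore not independent of that list. Their summed level was between 620.0 and 917 CPM in diabetic Hif1a+/-, between 316 and 460.0 CPM in non-diabetic Hif1a+/-, between 410.0 and 562 CPM in non-diabetic Wt and between 426 and 704 CPM in diabetic Wt, and none of the 17 was at 0 in any sample. Lyz2, the most abundant of them, was at 0.97 ± 0.21 in Hif1a+/- (unadjusted p of 0.000433, edgeR adjusted p = 0.178), from 101 to 146 CPM without and 205 to 294 CPM with diabetes. In Wt 1 of the 17 had an unadjusted p under 0.05 and was higher (1.17% of tested genes), with a median of 0.28. With all animals, Wt is the genotype with the larger mean differences in H2-Aa, H2-Ab1 and Cd74. The difference between genotypes was not past the test for any of these 3, and their order rested on diabetic Wt animal 80. Without it H2-Aa, H2-Ab1 and Cd74 were at 0.55, 0.49 and 0.54 in Wt and at 0.85, 0.74 and 0.87 in Hif1a+/-. In limma-voom too these 3 values were smaller in Wt. Diabetic Hif1a+/- animal 77 had the highest level in 11 of the 17 markers (64.7%, against 8.60% of all tested genes) and diabetic Wt animal 80 in 1. The part of these cells in the class II levels was not tested.

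The correlation of single markers with H2-Ab1 was below the 0.99 of H2-Aa and Cd74, and for some it was near or above the 0.70 of H2-Eb1. Over the 12 animals r was 0.67 for Csf1r, the macrophage growth factor receptor (rho 0.62, adjusted permutation p = 0.0239 for r and 0.0749 for rho), and 0.60 for Adgre1, which encodes F4/80 (rho 0.55, adjusted permutation p = 0.0542 for r), falling to 0.58 and 0.37 without the 2 extreme animals. Itgax, which encodes the dendritic cell integrin CD11c, had r = 0.67 and rho 0.80 (adjusted permutation p = 0.0239 and 0.0139) and r = 0.86 without these 2 animals, at 0.0623 to 0.839 CPM per sample. Flt3, the dendritic cell growth factor receptor, gave r = 0.76 (rho 0.57, adjusted permutation p = 0.011 for r and 0.0934 for rho) but was at 0.114 CPM or less, with 0 reads in the 3 non-diabetic Hif1a+/- animals, so little rests on it. Ptprc, which encodes the leukocyte antigen CD45, had r = 0.59 (rho 0.64, adjusted permutation p = 0.0563 for r).

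B and T cell markers were near the lower limit of reading. Cd79a, part of the B cell receptor, was at 0.351 CPM or less and its correlation with H2-Ab1 missed the threshold of 0.05 (r = -0.16, rho -0.17, adjusted permutation p = 0.69 for r), and the same held for Cd3e of the T cell receptor (at most 0.579 CPM, r = 0.01, rho 0.10, adjusted permutation p = 0.978) and for Pecam1 of endothelium (r = -0.14, rho -0.29, adjusted permutation p = 0.69). The summed level of 11 B cell markers was between 9.71 and 26.0 CPM over the 12 samples and that of 7 T cell markers between 1.41 and 4.14 CPM, with 8 of the 11 and 4 of the 7 too low to test. Of the 13 dendritic cell markers 5 were too low to test, the sum lay between 39.4 and 57.8 CPM, and 2 of the 8 tested had an unadjusted p under 0.05 and were higher in diabetic animals averaged over genotypes (5.47% of tested genes), with 0 past the adjusted edgeR test. Of the 8 tested dendritic cell markers, 6 had a positive log2 difference in that average, with a median of 0.31. Zbtb46, the most abundant of them and also expressed in endothelium, was at 19.7 to 28.6 CPM and had a log2 difference of -0.14 ± 0.10. Ighm, which encodes the IgM heavy chain and is the most abundant of the B cell list, was at 4.05 to 19.8 CPM (0.59 ± 0.34). Of the 3 tested B cell markers, 2 had a positive log2 difference in the same average, with a median of 0.34. At an unadjusted p under 0.05 in edgeR, 0 were higher and 1 was lower (11.3% of tested genes in either direction).

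Among the genes whose level over the 12 animals was most like the mean log2 CPM of H2-Aa, H2-Ab1, H2-Eb1 and Cd74, by Pearson's r over the tested genes, were C1qtnf7 (r = 0.944), Mmp13 (0.931), Tlr1 (0.913), Tor1a (0.912), Klhdc3 (0.902), Cd200 (0.898), H2-K1 (0.897), Rcsd1 (0.895) and Snx10 (0.888). With the group means removed the first 5 were Hexdc (0.986), Mmp13 (0.983), Snx10 (0.976), Kirrel3 (0.964) and Tor1a (0.962), so Mmp13, Tor1a and Snx10 were in both sets. These are among the highest of 14706 values over 12 animals and are given as a description. By the same measure H2-DMb1 ranked 24 of the tested genes (r = 0.865), H2-DMa 28 (0.862), H2-DMb2 48 (0.83), and Ciita 885 (0.629). Of the 4 genes averaged, Cd74, H2-Aa and H2-Ab1 ranked 1, 2 and 3 (0.998, 0.993 and 0.99), but H2-Eb1 ranked 112 (0.788).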

How the data were processed

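Total RNA from the LV of 12 offspring, 3 per group, went into 3′-seq libraries that the authors sequenced as single reads. The authors trimmed reads (Trimmomatic), removed ribosomal and mitochondrial reads, aligned with STAR version 2.5.2b to GRCm38 and assigned reads to GENCODE M8 genes with htseq-count. Per the file contents, the deposited values are raw counts of whole reads, without normalization. The 5 tally lines were left out (12.37% to 17.02% of reads were not uniquely aligned). The deposited normalized values were not used here. Reads are counted at the 3′ end, so levels are not per length. Alignment was to C57BL/6, whose MHC alleles differ from those of FVB, and reads lost at such differences would be lost in every group.

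Symbols came from GENCODE M21 (46488 of 46983 genes). Differences were tested by the quasi-likelihood method of edgeR 4.0.16 (R 4.3.3) with TMM, the default low-count filter by group (14706 of 27093 genes with a read), 1 mean per group, 12 samples in 1 fit (8 residual degrees of freedom, biological coefficient of variation 13.7%), Benjamini-Hochberg adjustment and the threshold of 0.1. Tests are two-sided. Log2 CPM used a prior count of 2. Correlations used two-sided permutation tests with 100000 resamples (15 pairs). Alternatives were DESeq2 1.42.0, limma-voom with sample weights (limma 3.58.1), other normalizations and filters, a robust fit, separate fits, a threshold of 0.05 and leaving out each animal. Scripts were tested on simulated data. Promoters came from RefSeq. Replicate pairs differed beyond sampling noise. The members and gene lists were chosen with earlier results of these data known. Named were the 8 members, the class II region chains, from each pathway list the 3 of lowest p for the effect of diabetes in Hif1a+/-, from each cell type list the most abundant gene and those correlated with H2-Ab1, and the genes most like the class II chains, of which 1 is not reported here. Python 3.11.15 (pandas 2.3.3, scipy 1.17.1) served for tables and permutations.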

Additional observations from a re-analysis of the deposited data

How the results depend on the processing

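Of 1089 recomputed values of the 56 log2 fold changes (8 genes in 7 comparisons), 1019 kept their direction and their side of the threshold, 16 passed it and 54 changed sign. The sign changes touched 22 of the 56, and 0 of the 8 in diabetic against non-diabetic averaged over the genotypes. The number of members at an adjusted p under 0.1 was 0 in each comparison with DESeq2, with other size factors, with a minimum of 10 counts in every sample, with a robust fit, with separate fits, at a threshold of 0.05 and without any 1 animal. Without the filter on low counts it was 3 in Wt (H2-Aa, H2-Ab1 and Cd74), 3 in Hif1a+/-, 3 in diabetic Hif1a+/- against non-diabetic Wt and 6 in the average over genotypes. Over all 27093 genes that fit called 129, 592, 445 and 593 in these 4 comparisons, where the filtered fit called 0. The standard error of Cd74 in Wt was then 0.18 in place of 0.5, with the same log2 fold change of 1.23, and the cause was not tested. Limma-voom with sample weights called 1 member, H2-Eb1 in Hif1a+/-.

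Limma-voom turned the sign for H2-DMa in Wt (-0.04), for H2-Aa (0.04), Cd74 (0.04) and H2-DMa (0.01) between non-diabetic genotypes, for H2-Aa (0.17), H2-Ab1 (0.27), Cd74 (0.28) and H2-DMa (0.53) between diabetic genotypes, for Ciita in diabetic Hif1a+/- against non-diabetic Wt (-0.01), and in the difference between genotypes for H2-Aa (0.13), H2-Ab1 (0.12), Cd74 (0.24), H2-DMa (0.52), H2-DMb1 (0.37) and H2-DMb2 (0.49). H2-DMb2 in that difference was at 0.01 with library totals and at 0.01 without the filter. The correlation of H2-Ab1 with Cd3e was -0.01 on log2(CPM + 1).

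Leaving out each animal in turn, the log2 fold change ran from -0.24 to 1.08 for H2-DMa in Wt, from -0.62 to 0.01 for Ciita in Hif1a+/- (lowest without animal 77, highest without animal 32) and from -0.25 to 0.26 for Ciita in diabetic Hif1a+/- against non-diabetic Wt. Between non-diabetic genotypes it ran from -0.44 to 0.31 for H2-Aa, -0.32 to 0.36 for H2-Ab1, -0.38 to 0.24 for Cd74, -0.20 to 0.10 for H2-DMa, -0.03 to 0.60 for H2-DMb1 and -0.18 to 0.50 for H2-DMb2. Between diabetic genotypes it ran from -1.15 to 0.20 for H2-Aa, -1.15 to 0.26 for H2-Ab1, -0.15 to 0.34 for H2-Eb1, -0.93 to 0.25 for Cd74, -0.62 to 0.69 for H2-DMa, -0.23 to 0.62 for H2-DMb1 and -0.63 to 1.00 for H2-DMb2. The difference between genotypes ran from -1.05 to 0.30 for H2-Aa, -1.16 to 0.25 for H2-Ab1, -0.85 to 0.33 for Cd74, -0.59 to 0.72 for H2-DMa, -0.57 to 0.28 for H2-DMb1 and -0.80 to 0.84 for H2-DMb2. In the average over genotypes it ran from 0.70 to 1.29 for H2-Aa, 0.62 to 1.26 for H2-Ab1, 0.47 to 0.71 for H2-Eb1, 0.70 to 1.26 for Cd74, 0.03 to 0.39 for Ciita, 0.12 to 0.78 for H2-DMa, 0.59 to 1.03 for H2-DMb1 and 0.65 to 1.28 for H2-DMb2. No paired analysis was possible because the groups share no replicate numbers. H2-DMb1 and H2-DMb2, with as few as 6 and 2 reads in a sample, are limited by depth.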
